A study of Bos taurus with 15 samples.

Results

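Interferon-stimulated genes were followed in the thymus of 15 Holstein cows. The set was fixed by name and held 9 genes: MX1, MX2, ISG15, IFI44, IFI6, RSAD2, PARP9, IRF7 and IFIT1. A probe counted for a gene if the array files named the gene or gave its symbol in brackets in the probe's description. By that rule 6 of the 9 genes had a probe, 1 each, among 21475 bovine probes on the array. IFI6, IRF7 and IFIT1 had none and were not analysed here. The control group was 7 untreated cows. The other group was 8 cows that received 30 mg of the glucocorticoid prednisolone a day each, orally, for 35 days. Thymus was collected at slaughter, and the RNA of 1 cow was hybridised to 1 array with 1 dye (Cy3), so that a replicate is an animal. The labels give the breed but neither age nor sex.

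Interferons are cytokines that cells release when they sense viral nucleic acid. Type I interferons bind the receptor IFNAR1 and IFNAR2, and the kinases JAK1 and TYK2 then start a signal that switches on antiviral genes. In mouse and human thymus, epithelial cells and plasmacytoid dendritic cells are known to produce some type I interferon without infection. Glucocorticoids are known to dampen interferon signalling in many cell types and to kill immature thymocytes. ISG15 encodes a ubiquitin-like protein that is joined to other proteins. MX1 and MX2 encode dynamin-like GTPases that block viruses, and RSAD2 encodes viperin, a radical SAM enzyme that makes a chain-terminating nucleotide. IFI44 is an interferon-induced protein whose function is less clear, and PARP9 works with the ubiquitin ligase DTX3L in interferon and DNA damage responses.

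The 15 arrays came from 4 slides with unequal numbers of treated cows. On slide 1, prednisolone animal 6 was run beside controls 1, 2 and 5. On slide 2, control 3 was run beside prednisolone animals 3, 5 and 8. On slide 3, prednisolone animal 1 was run beside controls 4, 6 and 7, and slide 4 carried prednisolone animals 2, 4 and 7 without a control. The share of bovine spots that stood well above background was 67.1% to 77.7% per array, and precision is limited by how many arrays there are. The arrays of slide 4 had 840 to 1050 spots marked as outliers, against 5 to 17 on the other arrays. Thymus identity was checked with DNTT and PTCRA of immature thymocytes and with PRSS16 and FOXN1 of thymic epithelium, which were well above background on all 15 arrays. All values below are log2 signals centred on the 75th percentile of their array, so that they show differences between animals for a probe and not between probes. In whole tissue, fewer cells of a type and less RNA per cell cannot be told apart.

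The first comparison asks whether the interferon-stimulated genes differ between treated and untreated cows. None of the 6 passed the test in either direction (limma, adjusted p under 0.05 over all 16069 probes kept). Among all those probes 0.0% were called, so the members' count equals the background. At an unadjusted p under 0.05 none of the 6 was called, against 7.08% of all kept probes, and with slide as a fixed block none was called against 9.57%. MX1 lay close to that line, with an unadjusted p of 0.0522 here and 0.0484 with slide as a random block (limma adjusted p = 0.720). The values of the groups overlapped for each of the 6 genes, and 0.118% of all kept probes had groups that did not overlap. The difference was above 0 for 5 genes and below 0 for ISG15, but that of MX2, IFI44 and RSAD2 turned negative with normexp background correction (-0.64, -0.51 and -0.47), which moved the median of all probes to -0.21. The probes of MX2, IFI44 and RSAD2 were dim, with mean signals before log2 of 48.9, 96.2 and 101.2. Those of PARP9, MX1 and ISG15 were 1152.5, 1286 and 5862. In the fit of processed signals, 49.9% of all kept probes lay above 0 and the median of all was -0.0004.

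**Figure D1:**
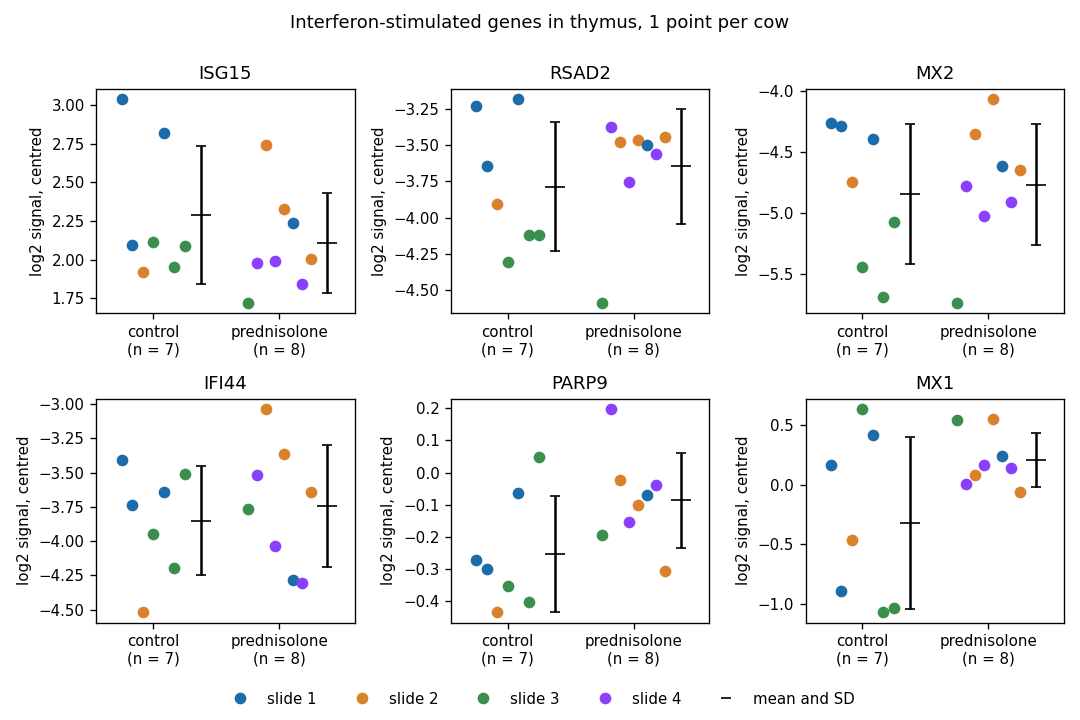
Log2 signal relative to the array's 75th percentile of the 6 measured genes (vertical axes) in control and prednisolone cows, 1 point per cow coloured by slide, with the group mean and SD in black. The groups overlap for each gene. The cows of slide 3 have the 4 lowest values of RSAD2, and 3 controls with MX1 near or below -0.89 lie apart from the other animals.

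ISG15, the ubiquitin-like modifier, ranged from 1.92 to 3.04 in controls with a median of 2.09. It ranged from 1.72 to 2.74 with prednisolone, with a median of 1.995. Controls 1 and 5, at 3.04 and 2.82, and prednisolone animal 3, at 2.74, were the high animals of their groups. The group means were 2.29 ± 0.45 (SD, n = 7) and 2.10 ± 0.32 (SD, n = 8). The difference, prednisolone minus control, was -0.19 ± 0.19 SE (limma adjusted p = 0.876, 95% interval -0.59 to 0.22). The difference was smaller than the spread within either group. Within slides 1, 2 and 3 the difference was -0.41, 0.44 and -0.33, with slide as a block it was -0.10, and without control 1 it was -0.061. Its 2 spots on an array differed by at most 0.060, so the spread of ISG15 between animals (SD 0.38) was far above its spot error.

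RSAD2, which encodes viperin, ranged from -4.31 to -3.19 in controls with a median of -3.90. It ranged from -4.59 to -3.38 with prednisolone, with a median of -3.49. The lowest animals of both groups were those of slide 3, and 7 of the 8 treated cows lay within -3.75 and -3.38. The means were -3.79 ± 0.45 (SD, n = 7) and -3.65 ± 0.40 (SD, n = 8), a difference of 0.14 ± 0.21 SE (limma adjusted p = 0.923, 95% interval -0.30 to 0.58). With slide as a block the difference was -0.037, so its sign was not settled. The 2 spots of RSAD2 differed by up to 0.78 on an array, and the error of their mean (SD 0.19) was not small beside the spread between animals (SD 0.41). Spot 1 minus spot 2 was 0.23 to 0.34 on slide 4. On slides 1 to 3 it averaged -0.32 and ranged from -0.78 to 0.38. The group difference of RSAD2 was 0.24 with spot 1 alone and 0.037 with spot 2 alone.

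MX2 encodes a GTPase of the same family as MX1, and both genes are direct neighbours on the ARS-UCD2.0 assembly. MX2 ranged from -5.69 to -4.27 in controls with a median of -4.75. With prednisolone it ranged from -5.74 to -4.07 with a median of -4.71. Its probe stood above background in all 7 controls and in 7 treated cows, prednisolone animal 1 being the exception. The means were -4.84 ± 0.57 (SD, n = 7) and -4.77 ± 0.50 (SD, n = 8), and the difference was 0.075 ± 0.26 SE (limma adjusted p = 0.972, 95% interval -0.48 to 0.63). The difference was -0.083 with slide as a block, and it also lay below 0 without control 4, control 6 or prednisolone animal 5.

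IFI44 ranged from -4.52 to -3.41 in controls with a median of -3.73. It ranged from -4.30 to -3.04 with prednisolone, with a median of -3.71. Control 3 was lowest and prednisolone animal 3 highest, and both lay on slide 2. The means were -3.85 ± 0.40 (SD, n = 7) and -3.74 ± 0.45 (SD, n = 8), a difference of 0.11 ± 0.21 SE (limma adjusted p = 0.946, 95% interval -0.33 to 0.55). Slides 1, 2 and 3 on their own gave -0.69, 1.17 and 0.12, and the blocked difference was 0.20. Without control 3 the difference was -0.0037. Spot 1 minus spot 2 of IFI44 was -0.45 to -0.36 on slide 4 and -0.24 to 0.24 on slides 1 to 3, with 0 spots marked as outliers. The group difference of IFI44 was 0.011 with spot 1 alone and 0.20 with spot 2 alone.

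PARP9 varied least of the 6 genes, with an SD of 0.18 over the 15 arrays, against a median of 0.26 over all kept probes. It ranged from -0.43 to 0.05 in controls with a median of -0.30. It ranged from -0.30 to 0.20 with prednisolone, with a median of -0.09. The means were -0.25 ± 0.18 (SD, n = 7) and -0.09 ± 0.15 (SD, n = 8). The difference of 0.17 ± 0.089 SE did not pass (limma adjusted p = 0.732, unadjusted 0.0803, 95% interval -0.023 to 0.36). The blocked difference was 0.16, and slides 1, 2 and 3 on their own gave 0.14, 0.29 and 0.041.

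MX1 had the largest difference of the 6 genes in the fit of all arrays, and it did not pass either. It ranged from -1.07 to 0.64 in controls with a median of -0.47, and from -0.065 to 0.55 with prednisolone with a median of 0.15. Controls 6, 7, 2 and 3, at -1.07, -1.04, -0.89 and -0.47, lay below every treated cow, while controls 1, 5 and 4, at 0.16, 0.42 and 0.64, lay among or above them. The means were -0.32 ± 0.72 (SD, n = 7) and 0.21 ± 0.23 (SD, n = 8). The difference was 0.53 ± 0.25 SE (limma adjusted p = 0.701, unadjusted 0.0522, 95% interval -0.0058 to 1.06), a 1.44-fold higher signal. Over the 6435 ways to split the animals, the exact permutation p (two-sided, unadjusted) was 0.0713. Within slides 1, 2 and 3 the difference was 0.34, 0.66 and 1.03, and with slide as a block it was 0.68 ± 0.34 SE (limma adjusted p = 0.568).

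The spread of MX1 differed between the groups more than that of most probes. Its SD was 3.16 times as large in controls as in treated cows, a ratio above that of 99.7% of kept probes, and the median ratio over all kept probes was 0.83. This ratio is given as a description. For the 3 treated cows of slide 4 it uses spot 2 of the probe alone, as spot 1 was marked as an outlier. Spot 1 of prednisolone animals 2, 4 and 7 read -0.50, -0.35 and -0.33, below the lowest treated value of -0.065. How far the ratio depends on these spots was not tested. On slide 3 alone, controls 6 and 7 lay at -1.07 and -1.04 while control 4 and prednisolone animal 1 lay at 0.64 and 0.54. Only 5.07% of the spread of MX1 lay between slides.

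The level of MX1 on slide 4 rests on 1 spot. The MX1 probe has 2 spots per array, and spot 1 was marked as an outlier by the scanner software on all 3 arrays of slide 4 and on no other array. On slides 1 to 3 spot 1 was brighter than spot 2 on every array, by 0.072 to 0.47. On slide 4 it was dimmer, by 0.47 to 0.52. With the marked spots kept the difference between the groups was 0.44. With spot 1 alone on every array it was 0.28 (two-sided exact permutation p = 0.370), and with spot 2 alone it was 0.59 (exact permutation p = 0.0507). Without slide 4 it was 0.59 (limma adjusted p = 0.598).

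**Figure D2:**
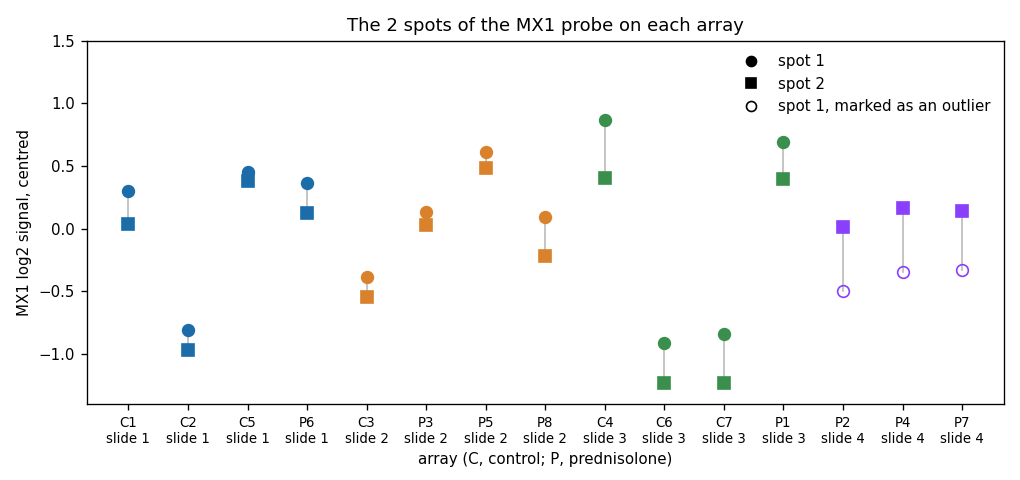
Log2 signal of the 2 spots of the MX1 probe, centred on the 75th percentile of the array (vertical axis), on each of the 15 arrays ordered by slide (horizontal axis; C, control; P, prednisolone). Open circles mark spot 1 on the 3 arrays of slide 4, where it was marked as an outlier and lies 0.47 to 0.52 below spot 2; on the other 12 arrays spot 1 is the brighter one.

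**Figure D3:**
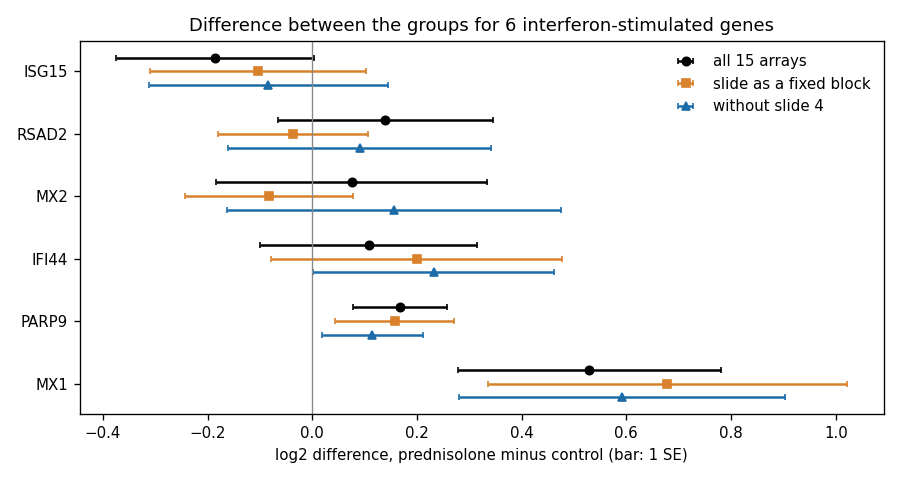
Log2 difference, prednisolone minus control (horizontal axis), of the 6 genes (vertical axis) in 3 fits, with bars of 1 SE. RSAD2 and MX2 lie on both sides of 0, at 0.14 and 0.075 with all arrays and at -0.037 and -0.083 with slide as a block, while MX1 lies between 0.53 and 0.68.

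The genes differed in how far they followed the slides. Slides accounted for 82.1% of the spread of MX2, 78.6% of that of RSAD2 and 44.3% of that of ISG15. The shares were 24.1% for PARP9, 7.73% for IFI44 and 5.07% for MX1, and the median over kept probes was 42.8%. MX2 averaged -4.39 on slide 1 and -5.48 on slide 3, and RSAD2 averaged -3.39 and -4.28. Slide 1 and slide 3 each held 3 controls and 1 treated cow. Each cow was run on 1 slide only, so animals and handling of the slides cannot be told apart as sources of the gap. Treatment accounted for 23.2% of the spread of PARP9 and 23.1% of that of MX1, and for 6.23% or less in the other 4 genes, with a median of 4.36% over kept probes.

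The second question is whether the 6 genes rise and fall together from cow to cow. All 15 pairs of members correlated above 0 across the 15 arrays, with Pearson r from 0.12 to 0.85 and a median of 0.32, where the median over all pairs of kept probes was 0.014. Cows with high values tended to be high for several genes at once: control 5 and prednisolone animals 3 and 5 were above the mean of each of the 6 genes, and control 6 was below it for each. The 3 cows above all means came from both groups. Arrays on a slide share their handling, so each correlation was also computed after the mean of each slide was removed. A slide holds 3 or 4 arrays, too few for a correlation of its own.

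Counting 7 pairs with partner genes given below, 22 relations were tested by two-sided permutation, and p-values were adjusted over these 22 by Benjamini-Hochberg. MX2 and RSAD2 had r = 0.85 (rho 0.75, permutation p = 8e-05 for r, adjusted 0.0018, and p = 0.0017 for rho, adjusted 0.0199), and r = 0.76 without the 2 arrays farthest from the median of MX2. As both genes follow the slides, their r fell to 0.51 once slide means were removed (permutation within slides, p = 0.0991, adjusted 0.168). The probes of both genes are dim, as given above. MX2 and ISG15 had r = 0.64 (rho 0.72, permutation p = 0.0099 for r, adjusted 0.0467, and p = 0.0033 for rho, adjusted 0.0243), 0.58 without the 2 farthest arrays and 0.49 with slide means removed (permutation p = 0.0916, adjusted 0.168). ISG15 and RSAD2 had r = 0.63 (rho 0.58, permutation p = 0.0127 for r, adjusted 0.0467, and p = 0.0279 for rho, adjusted 0.0865), 0.45 without the 2 farthest arrays and 0.66 with slide means removed (permutation p = 0.0346, adjusted 0.0847). The other 12 pairs of members did not pass over all arrays.

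With slide means removed, the 10 pairs among ISG15, RSAD2, MX2, IFI44 and PARP9 had r from 0.35 to 0.69, with a median of 0.56. MX1 was set apart after its values were seen, so this is a description, and 1 of the 10 pairs passed. The median of the same pairs was 0.44 before slide means were removed, and that over all pairs of kept probes was 0.009 after. MX2 and IFI44 had r = 0.69 with slide means removed (permutation within slides, p = 0.0129, adjusted 0.0474), and r = 0.44 over all arrays (rho 0.49, permutation p = 0.103 and 0.0642, adjusted 0.217 and 0.141). That was the 1 pair of members that passed with slide means removed.

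The 5 pairs of MX1 had r from 0.13 to 0.24 over all arrays and from -0.056 to 0.28 with slide means removed, and none passed (smallest permutation p for r over all arrays 0.398). With group means removed the r of MX1 and ISG15 was 0.42, and the other 4 lay from -0.054 to 0.11. Over all arrays the lowest r of the 15 was that of ISG15 and PARP9, at 0.12. Between MX1 and its neighbour MX2, r was 0.13 (rho 0.093, permutation p = 0.655 and 0.744, adjusted 0.662 and 0.799), and -0.35 without the 2 arrays farthest from the median of MX1. Of all pairs of kept probes, 39.0% had an r at least as high as that of MX1 and MX2, against 0.474% for MX2 and RSAD2. Whether the r of MX1 differ from those of the other pairs was not tested.

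**Figure D4:**
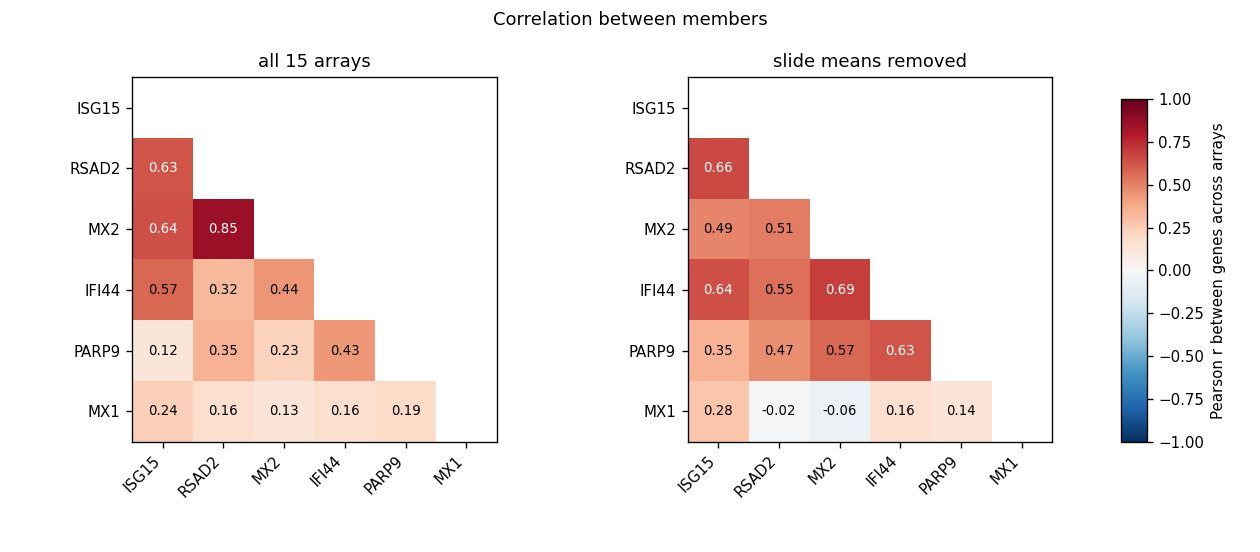
Pearson r between pairs of the 6 genes across 15 arrays (left) and after removal of the mean of each slide (right), on a colour scale from -1 to 1. The row of MX1 stays between -0.056 and 0.28 in both panels. The 10 other pairs lie between 0.12 and 0.85 on the left, which overlaps the row of MX1, and between 0.35 and 0.69 on the right.

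Known partners of the members were set against them, with pairs picked for what the genes do after the members' own values had been seen. IFI44L is the neighbour and relative of IFI44, and r between them was 0.80 (rho 0.75, permutation p = 0.00019 and 0.0018, adjusted 0.0021 and 0.0199), 0.61 without the 2 farthest arrays and 0.81 with slide means removed (permutation p = 0.0055, adjusted 0.0447). UBA7, the enzyme that activates ISG15, had r = 0.76 with ISG15 (rho 0.66, permutation p = 0.0011 and 0.0096, adjusted 0.0081 and 0.0528), 0.58 without the 2 farthest arrays and 0.81 with slide means removed (permutation p = 0.0092, adjusted 0.0447). HERC5, the ligase for ISG15 in human cells, had r = 0.64 with it (rho 0.56, permutation p = 0.0107 and 0.0314, adjusted 0.0467 and 0.0865). This fell to 0.30 without the 2 farthest arrays and so rests on controls 1 and 5, while with slide means removed it was 0.77 (permutation p = 0.0012, adjusted 0.0268).

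Other partners passed only within slides or not at all. USP18, which removes ISG15 from proteins, had r = 0.57 with ISG15 (rho 0.44, permutation p = 0.0269 and 0.102, adjusted 0.0739 and 0.186), 0.38 without the 2 farthest arrays and 0.78 with slide means removed (permutation p = 0.0102, adjusted 0.0447). UBE2L6, the conjugating enzyme, had r = 0.35 (rho 0.52, permutation p = 0.194 and 0.0503, adjusted 0.338 and 0.123), 0.39 without the 2 farthest arrays and 0.20 with slide means removed (permutation p = 0.639, adjusted 0.739). DTX3L, the partner of PARP9 and its neighbour on the assembly, had r = 0.54 with it (rho 0.59, permutation p = 0.0358 and 0.0244, adjusted 0.0876 and 0.0865), 0.48 without the 2 farthest arrays and 0.76 with slide means removed (permutation p = 0.0067, adjusted 0.0447). PARP14, a mono-ADP-ribosyltransferase, had r = 0.22 with PARP9 (rho 0.18, permutation p = 0.439 and 0.522, adjusted 0.568 and 0.676). With slide means removed their r was 0.45 (permutation p = 0.167, adjusted 0.246).

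The 10 named probes most like the mean of the 6 standardised genes over the 15 arrays were those of DTX3L (r = 0.88), SLAMF8 (0.84), SLC2A6 (0.84), SLC16A5 (0.81), MS4A1 (0.80), SLC13A3 (0.79), ZNFX1 (0.79), SLAMF6 (0.78), MUS81 (0.78) and ISG20 (0.78). They are given as a description, and the points share slides. DTX3L, the helicase-like antiviral sensor ZNFX1 and the exonuclease ISG20 are known interferon-responsive genes. With slide means removed the r of the 10 ranged from 0.62 for MS4A1 to 0.85 for SLC2A6. Ranked by that r over all named probes, METTL8 (0.91), FOXF1 (0.89), MYO1G (0.89) and PHACTR3 (0.88) led, and SLC2A6 was the 1 probe in the first 10 of both orders. MS4A1, a B cell gene, has 2 kept probes, of which the 1 on this list is not the brighter.

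Other genes of the pathway were taken from lists, and none passed the test in either direction (limma, against 0.0% of all kept probes). For the interferons themselves, the probes of IFNAA and IFNAC were well above background on 15 of 15 arrays, that of IFNG on 8, IFNB1 on 5, IFNT2 on 2 and IFNW1 on 0. Bovine type I interferons form a large family of similar genes, and probes for them may not separate its members. Of 3 ligands kept, 2 were higher and 1 lower with prednisolone, with a median log2 difference of 0.061. IFNAA was -0.58 ± 0.30 SE (limma adjusted p = 0.725) over all arrays and -0.051 with slide as a block.

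Of 15 kept genes for receptors and signalling, 8 were higher and 7 lower, with a median log2 difference of 0.0026. The smallest p belonged to SOCS3, an inhibitor of JAK signalling (-0.75 ± 0.32 SE, limma adjusted p = 0.688), SOCS1, another such inhibitor (-0.16 ± 0.085 SE), PIAS1 (0.28 ± 0.16 SE) and the kinase TYK2 (0.15 ± 0.099 SE). For SOCS3 the blocked difference was -0.12, and slides 1, 2 and 3 on their own gave -0.30, -0.075 and 0.019. IRF9, a transcription factor of the type I response, was well above background on all arrays, and STAT2, which works with it, was well above background on 3 by its best probe.

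Genes that sense nucleic acid and induce interferon had 9 members higher and 8 lower of 17 kept, with a median difference of 0.020. Their smallest p belonged to TBK1, the kinase that activates IRF3 (-0.25 ± 0.13 SE), STING1, the adaptor of cytosolic DNA sensing (-0.71 ± 0.38 SE, both limma adjusted p = 0.732), TLR3 (-0.19 ± 0.14 SE) and DHX58 (0.17 ± 0.15 SE). STING1 had an SD of 1.06 with prednisolone and 0.25 in controls, and was 0.031 with slide as a block. TLR7, TLR8 and TLR9 were well above background on 4, 1 and 3 arrays.

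Other antiviral effectors had 22 of 33 kept genes lower and 11 higher, with a median difference of -0.040, and -0.0052 without slide 4. The smallest p belonged to TRIM21, an antibody receptor of the cytosol (0.17 ± 0.080 SE, limma adjusted p = 0.701), IFI44L (0.15 ± 0.089 SE), the lysosomal thiol reductase IFI30 (-0.20 ± 0.13 SE) and IFI35 (-0.093 ± 0.061 SE). OASL, SAMD9 and OAS1Z were well above background on 0 arrays. Of the genes that conjugate ISG15 or work with PARP9, 5 of 8 were higher and 3 lower, with a median difference of 0.063. They were led by HERC6 (0.32 ± 0.18 SE, limma adjusted p = 0.741; it has 2 kept probes) and DTX3L (0.17 ± 0.11 SE), followed by UBE2L6 (0.11 ± 0.12 SE) and PARP14 (0.076 ± 0.098 SE).

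Genes that respond mostly to interferon gamma had 9 of 15 kept members higher and 6 lower, with a median difference of 0.097. The smallest p belonged to PSMB10, a subunit of the immunoproteasome (0.19 ± 0.088 SE, limma adjusted p = 0.700), ICAM1 (0.18 ± 0.084 SE), SOCS1 (given above) and the peptide transporter TAP1 (0.36 ± 0.21 SE, adjusted p = 0.742). PSMB10 had an unadjusted p of 0.0437. Within slides 1, 2 and 3 PSMB10 was 0.085, 0.17 and 0.22. The chemokines CXCL9 and CXCL11 were well above background on 3 and 2 arrays, and CXCL10 on all 15. With normexp background correction, which moved the median of all probes to -0.21, the list medians were -0.82 for ligands and -0.37 for sensing genes. They were -0.0031 for receptors and signalling, -0.11 for other effectors, 0.044 for ISG15 conjugation and 0.085 for the interferon gamma list.

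**Figure D5:**
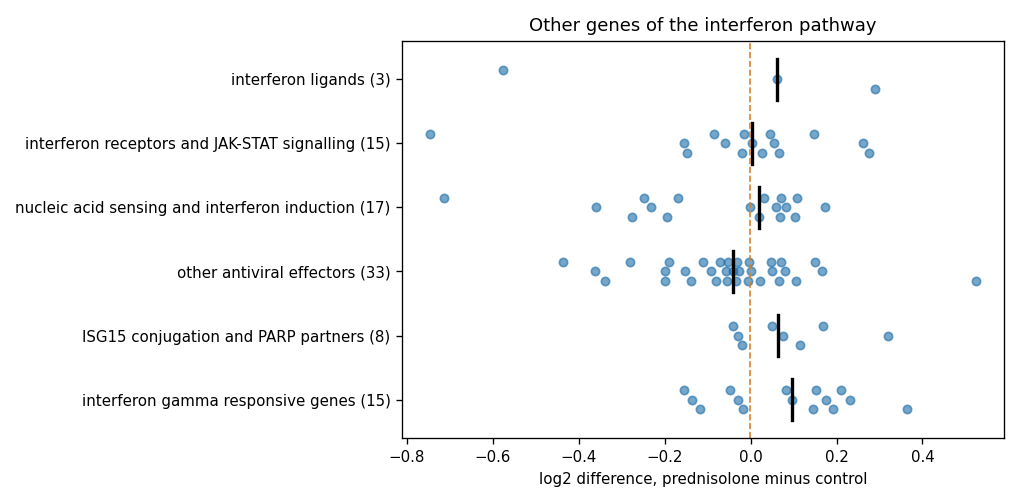
Log2 difference, prednisolone minus control (horizontal axis), of each kept gene of 6 lists of the interferon pathway (number kept in brackets), with the list median as a black bar and the median of all kept probes as a dashed line. The list medians lie between -0.040 and 0.097 on the processed signals, and no gene passed the test.

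Cells known for interferon production or for high levels of these genes were read from markers. Of 9 listed markers of plasmacytoid dendritic cells 5 had a kept probe, of which IRF8, BLNK and PTCRA also mark other lymphoid or myeloid cells, and no probe was matched to CLEC4A, CLEC4C, LILRA4 or IL3RA. Of these 5, 4 were higher and 1 lower with prednisolone, with a median of 0.070 (0.20 without slide 4). The mean log2 level of the 5 ranged from -1.53 to -1.24 in controls and from -1.54 to -1.04 with prednisolone. The 8 macrophage markers, all kept, were lower with prednisolone in 8 of 8, with a median of -0.25 (-0.15 in the blocked fit, and -0.0020 once slide 4 was left out). Their mean level ranged from -0.10 to 0.94 in controls and from -0.44 to 0.69 with prednisolone. Kept markers were also lower in 5 of 5 for erythroid cells (median -0.38, and 0.0003 in the blocked fit) and 4 of 4 for neutrophils (median -0.15). They were higher in 3 of 3 for adipocytes (median 0.24, and 0.97 in the blocked fit). Within slide 2 these 3 were lower with prednisolone (FABP4 -1.45, PLIN1 -1.72, CIDEC -2.11), while within slides 1 and 3 each was higher. Kept markers were higher in 5 of 7 for immature thymocytes (median 0.11) and 2 of 4 for conventional dendritic cells (-0.014). Of 8 markers of thymic epithelium 3 were higher and 5 lower, with a median of -0.030. Of 5 B cell markers 4 were higher and 1 lower, with a median of 0.26, and the difference of CD79B was 0.52 (unadjusted p = 0.0349). None of these markers passed with limma (adjusted p = 0.693 for CD79B). The probe of CD79B was dim, with a mean signal before log2 of 47.5. With normexp background correction the medians were -0.12 for B cells, -0.081 for plasmacytoid dendritic cells, -0.25 for macrophages and -0.0029 for thymic epithelium. For the other lists they were 0.21 (immature thymocytes), 0.011 (adipocytes), -0.20 (neutrophils), -0.64 (erythroid cells) and -0.67 (conventional dendritic cells). The median of all probes was then -0.21. The part of these cells in the values of the interferon-stimulated genes was not tested.

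A probe described only in words as similar to IFIT1 (LOC508267 in the files), outside the naming rule, was well above background on 1 array in all, that of a treated cow.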

How the data were processed

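Spot intensity values were deposited by the authors as scanner output, which per the file headers was written by Feature Extraction 9.5.1.1. The processed signal is background-subtracted and detrended within the array, with no scaling between arrays, and is written with 3 digits. Outlier, saturation and background flags come from the same files. A second set of intensity values from the authors is linear, with unknown centring and column medians of 188.5 to 274.1. On each array its Spearman correlation with the scanner signal reached 0.9996 or more. The submitters' processing notes name R 2.11.1.

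From the processed signal, log2 values were taken relative to the array's 75th percentile over bovine spots, outlier spots were left out, and the 2 spots of a probe were averaged. A probe had to stand above background on 7 or more arrays (16069 did). The comparison used limma 3.58.1 (R 4.3.3) over all kept probes, with Benjamini-Hochberg adjustment and a threshold of 0.05. All 6 member probes were kept, 5 of them above background on 15 arrays. Symbols came from gene numbers, accessions and descriptions matched to RefSeq's cattle genes on ARS-UCD2.0. A list gene is read from its brightest kept probe. Correlations used 100000 permutations, or 50000 within slides. Named were all members, the 4 list genes with the smallest p, and the 10 probes most like the members' mean. The fit was tested on simulated data. Group labels follow the treatment field, while replicate numbers are accession order. Alternatives were other scalings, normexp, the authors' values, filters on dim probes, keeping outlier spots, a slide block, trend and robust, array weights and each animal left out. The members and lists were chosen with earlier results of these data known.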

Additional observations from a re-analysis of the deposited data

Results flagged for a closer look

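RSAD2 in prednisolone animal 1 was -4.59, far below the other 7 treated cows, of which the lowest was -3.75. The gap was 0.69 of the group's range, where the 95% critical value for 8 animals is 0.526. That array was the only treated one on slide 3, whose 3 controls had RSAD2 values from -4.31 to -4.12. Chance flags about 1 in 20 groups, and 12 groups of values were tested.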

How the results depend on the processing

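None of the 6 genes passed in any of 28 fits, and the 167 values of single genes under alternatives that have a limma adjusted p had 0.236 as the smallest. An unadjusted p under 0.05 came up for MX1 in 10 of these values, for PARP9 in 4 and for the other 4 genes in 0. The count of called probes was 0, and 0 to 3 when single animals were left out. The 3 came without prednisolone animal 1 and were TRADD and 2 probes without a symbol (named after their values were seen), none of them a member. Normexp background correction turned MX2 to -0.64, IFI44 to -0.51 and RSAD2 to -0.47, where it moved the median of all probes to -0.21 and the count at an unadjusted p under 0.05 from 1138 to 2987. With slide as a fixed block MX2 was -0.083 and RSAD2 -0.037, and as a random block MX2 was -0.021. Leaving out single animals gave MX2 -0.066 to 0.21 and IFI44 -0.0037 to 0.19. For the genes whose sign held when single animals were left out, the ranges were MX1 0.40 to 0.69, PARP9 0.13 to 0.22, RSAD2 0.053 to 0.27 and ISG15 -0.28 to -0.061. The cause of these changes of sign was not tested. The median correlation among the members was 0.32, 0.49 with slide means removed, and 0.27 to 0.41 when single animals were left out. It moved by less than its jackknife error of 0.15 under the other alternatives. MX2 has no value when probes must be above background on all 15 arrays. Each member has 1 probe, so averaging a gene's probes changes nothing. Leaving out slide 4 and the single spots of MX1, IFI44 and RSAD2 were added after the data were seen. No paired analysis was possible because the labels give no number shared between the groups.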
